A study of Homo sapiens with 6 samples.

Results

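The genes described here are 10 classical cadherins: the type I members CDH1, CDH2, CDH3 and CDH4 and the type II members CDH6, CDH8, CDH9, CDH10, CDH11 and CDH12. They were taken by symbol from a table of read counts for 59653 gene symbols, and all 10 had a row in it. The set was chosen by the measured counts of this very comparison, in which CDH9 had the largest decrease of them, so the fold changes of the members are given as a description, without a p-value, and nothing is supported with them.

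The counts came from bulk RNA-seq of PA1, a human cell line established from an ovarian teratocarcinoma, labelled wildtype in all 6 libraries. Of 2 groups with 3 libraries each, one was transfected with a negative control siRNA and the other with siRNA against SOX2, a transcription factor of pluripotent and neural progenitor cells. Transfected cells stayed attached for 24 h and were then kept for 72 h on a non-adherent coating, so that both groups had grown without anchorage when RNA was taken. The design names 2 SOX2 siRNAs, whether used as a pool or in different libraries is not stated, and separate cultures per library are not stated either, so p-values measure only the spread between these libraries, which may be technical.

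Classical cadherins are single-pass membrane proteins whose extracellular domains bind cadherins on the neighbouring cell in a calcium-dependent way. Their cytoplasmic tails bind β-catenin and p120-catenin, and through α-catenin they connect to actin at adherens junctions. Type I cadherins such as E-cadherin (CDH1) and N-cadherin (CDH2) give strong adhesion. Type II cadherins are expressed in restricted patterns, many of them in the nervous system, and sort cells through selective binding.

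CDH9 lies on the minus strand of chromosome 5, at chr5:26880600-27121150 in GRCh38 (GENCODE 29). The window from 250 bases before to 50 bases after its RefSeq start site is shown because CDH9 is the member with the steepest fall, and that of CDH10 because it aligned best with it among the members' windows. Both are on the minus strand of GRCh38.p14 (RefSeq), CDH9 at chr5:27038537-27038836 and CDH10 at chr5:24644929-24645228, written 5′ to 3′ along the gene. Capitals mark the motifs searched for.
CDH9: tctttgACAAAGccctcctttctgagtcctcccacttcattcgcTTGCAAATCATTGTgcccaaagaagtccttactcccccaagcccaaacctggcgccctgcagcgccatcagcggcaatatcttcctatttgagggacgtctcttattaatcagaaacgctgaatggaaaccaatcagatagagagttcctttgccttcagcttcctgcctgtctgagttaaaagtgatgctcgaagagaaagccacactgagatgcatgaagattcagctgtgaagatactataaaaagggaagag
CDH10: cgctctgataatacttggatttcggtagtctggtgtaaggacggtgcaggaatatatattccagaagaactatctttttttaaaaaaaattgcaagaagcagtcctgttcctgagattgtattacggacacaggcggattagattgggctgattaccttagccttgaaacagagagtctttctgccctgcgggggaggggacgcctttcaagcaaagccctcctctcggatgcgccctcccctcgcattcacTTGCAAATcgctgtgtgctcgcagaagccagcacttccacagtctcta

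Searched for on both strands were CATTGT (a SOX core), ACAAAG (a core shared by SOX and TCF factors), ATGCAAAT (the octamer bound by POU factors) and TTGCAAAT (an octamer-like word, added after the sequences had been seen). The CDH9 window held ACAAAG from -244 to -239, TTGCAAAT from -206 to -199 and CATTGT from -198 to -193, counted from the start site, and the last pair are adjacent with no base between them. Of 34943 promoter windows of this length, 16.1% held ACAAAG, 10.8% held CATTGT, 1.77% held ATGCAAAT and 0.887% held TTGCAAAT. The adjoining word TTGCAAATCATTGT, joined as it had been read in the CDH9 window, was found in 2 windows, those of CDH9 and LOC124902927. Its match in CDH9 was thus fixed beforehand, and nothing is read from its rarity. The CDH10 window held TTGCAAAT from +3 to +10. Its best local alignment with the CDH9 window spanned 56 columns, of which 44 were identical (78.6%). The CDH12 windows held CATTGT on the other strand, TTGCAAAT and ACAAAG, each in a different window, so no CDH12 window held them together. No searched word was found in the windows of CDH2, CDH4 or CDH8, and windows matched 6 of the 10 members. A match is a word in the sequence, and binding at it was not measured here. GENCODE 29 also begins a CDH9 transcript 82.6 kb further upstream, and that start was not searched.

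The libraries held 25152313 to 32753184 counts, so that 3 counts, the limit that a count of 0 allows, corresponded to 0.0909 to 0.12 CPM, the count scaled to library size. Intervals and such limits cover counting error only and leave out the spread between libraries. They also take reads as independent, which reads copied by PCR are not, so they could be too narrow. SOX2 itself, counted 8093, 6647 and 7396 times under control siRNA, was counted 1564, 1776 and 1513 times under SOX2 siRNA, which left 20.5% of its control level in CPM. Of 12 genes that mark pluripotent and embryonal carcinoma cells, 11 passed the filter on low counts and TDGF1 had at most 3 counts in a library. Their summed level was 3335 to 3390 CPM in the controls and 3014 to 3066 CPM after SOX2 siRNA, but these markers went both ways. Of the 11, 4 were higher and 3 lower at an edgeR adjusted p under 0.05, beside 14.8% higher and 13.4% lower of all tested genes. The lower ones include SOX2 itself and PODXL (1316 ± 15.04 to 671.2 ± 25.09 CPM; SD, n = 3), while LIN28A (706 ± 3.611 to 1148 ± 10.36 CPM), LIN28B, POU5F1 and DNMT3B were higher. Summed markers of blood cells were low, at 0.359 to 0.636 CPM in the controls and 0.861 to 0.937 CPM after SOX2 siRNA. Of these markers only CD14 entered the fit, and it was higher (0.363 ± 0.0545 to 0.672 ± 0.0468 CPM, edgeR adjusted p = 0.0428). Summed markers of fibroblasts were 332.7 to 381 CPM in the controls and 506.9 to 557.5 CPM after SOX2 siRNA, and those of epithelium 343.7 to 387.4 and 475.4 to 511.1 CPM. Most of the fibroblast sum was COL1A1 (281.9 ± 24.34 to 357.7 ± 26.2 CPM). PDGFRB rose from 28.56 ± 0.9989 to 106.2 ± 0.3878 CPM, while COL1A2 overlapped between the groups. Most of the epithelium sum was KRT8 (236.6 ± 13.95 to 316.4 ± 11.93 CPM) and KRT18 (125.8 ± 6.509 to 176.5 ± 5.917 CPM), while EPCAM and KRT19 overlapped between the groups. Summed markers of endothelium were 126 to 130.5 and 94.79 to 98.66 CPM, and those of neurons 173.9 to 186.8 and 131.8 to 135.2 CPM. Most of the neuron sum was MAP2 (131.6 ± 10.7 to 69.86 ± 1.587 CPM), and TUBB3 of the same list rose from 28.93 ± 3.593 to 48.49 ± 1.42 CPM (edgeR adjusted p = 8.23e-06). The part of these marker levels in the cadherin values was not tested, and in a bulk sample fewer cells of a type and less RNA per cell cannot be told apart.

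To compare members with each other, CPM were divided by the length in kb of each gene's principal transcript (CPM per kb, a level). In the control libraries 2 members carried nearly all of the RNA summed over the listed set. The order below holds for the members only, and cadherins outside the set were not ranked with them. Among these, in CPM not divided by length, CDH24 had a control mean of 23.9 CPM, above CDH9 at 11.35 CPM. CDH5 (8.98), CDH7 (4.56) and CDH18 (2.07 CPM) lay below CDH9 in that measure. Their order per kb was not computed. CDH6 (K-cadherin, a type II cadherin known from kidney and from neural crest) stood at 80.4 ± 1.44 CPM per kb (SD, n = 3). CDH2 stood at 59.4 ± 2.51 CPM per kb, and CDH9 came next at 3.69 ± 0.0550 CPM per kb. CDH3 followed at 1.74 ± 0.206 CPM per kb. These 4 levels did not overlap between neighbours in the order in any library. Below them CDH8 (0.288 ± 0.0345), CDH1 (0.264 ± 0.0503) and CDH12 (0.218 ± 0.167 CPM per kb) each overlapped with the next in order, and CDH12 was followed by CDH10, which overlapped with CDH11. CDH4 was lowest, at 0.00359 CPM per kb, and lay apart from CDH11. E-cadherin was therefore a minor member in PA1, and the CDH2 level per kb was 231 ± 47.7 times the CDH1 level in the controls and 198 ± 24.4 times after SOX2 siRNA.

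**Figure D1:**
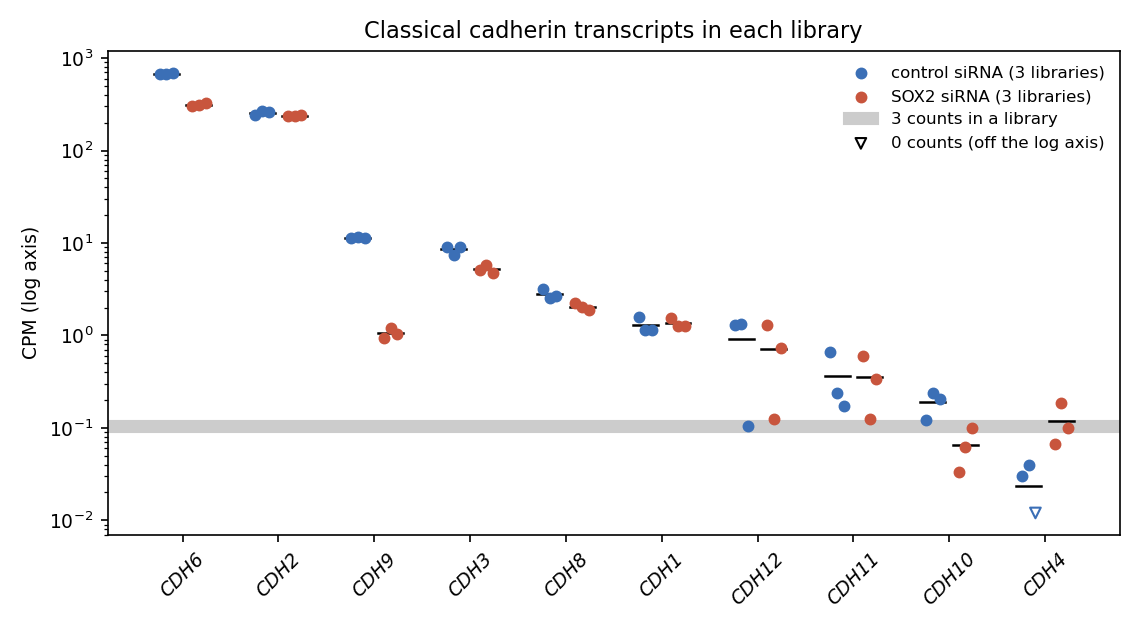
Level of each of the 10 cadherins in CPM on a log axis, 1 point per library, control siRNA beside SOX2 siRNA, with an open triangle for a library with 0 counts. CDH9 drops from 11.2 to 11.5 CPM in the controls to 0.928 to 1.21 CPM, while the points of CDH1, CDH11 and CDH12 overlap between the groups.

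Among the type I members, CDH2, the N-cadherin of neural and mesenchymal cells (chr18:27950966-28177446, minus strand), had 245.5, 266.9 and 259.7 CPM in the controls and 235, 236.9 and 241.2 CPM after SOX2 siRNA. All treated libraries lay below all controls, by a small margin. The fitted log2 fold change was -0.11 (SE 0.0372), with 92.3% of the control level left. CDH2 lost its place among the genes past the threshold when control library 2, control library 3, SOX2 siRNA library 1 or SOX2 siRNA library 2 was left out.

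CDH3, the P-cadherin of basal epithelium and placenta, had 9.15, 7.38 and 9.13 CPM in the controls and 5.07, 5.75 and 4.79 CPM after SOX2 siRNA. The groups did not overlap. The log2 fold change was -0.72 (SE 0.112), a 1.64-fold lower level. CDH1, the E-cadherin of epithelia and of pluripotent cells, had 52, 29 and 33 counts in the controls and 47, 41 and 38 after SOX2 siRNA. Its groups overlapped, and the log2 fold change was 0.07 (SE 0.218). CDH1 starts 14.6 kb beyond the end of CDH3 on the same strand of chromosome 16 (CDH3 at chr16:68636189-68722616, CDH1 at chr16:68737225-68835548), and these neighbours had different fold changes. CDH4, the R-cadherin of retina and brain (chr20:61252426-61940617, plus strand), had 1, 1 and 0 counts in the controls and 2, 6 and 3 after SOX2 siRNA, too few to enter the fit. Its ratio of SOX2 siRNA to control, scaled for depth, was 5.18 with a 95% counting interval from 1.13 to 48.1. That interval uses counts summed over libraries, leaves out the spread between them and is no test of CDH4.

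Among the type II members, CDH9, a cadherin known from neurons of the hippocampus and retina and from kidney, had 370, 289 and 327 counts in the controls and 28, 39 and 31 after SOX2 siRNA. This was 11.2, 11.5 and 11.3 CPM against 0.928, 1.21 and 1.04 CPM. The controls were close together, with a coefficient of variation of 1.49% where counting alone gives 5.52%, and the treated libraries were far below them. The log2 fold change was -3.42 (SE 0.124), a 10.7-fold lower level with 9.31% left. Over all alternatives tried it stayed between -3.53 and -3.33.

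CDH6 (chr5:31193750-31329146, plus strand) had 22375, 16806 and 20082 counts in the controls and 9084, 10130 and 9786 after SOX2 siRNA. In CPM the controls were 677.9, 670.8 and 694.6 and the treated libraries 300.9, 313.3 and 327.6. The groups were far apart and tight, and the log2 fold change was -1.12 (SE 0.0369), with 46.1% of the level left. Per length, CDH6 went from 80.4 ± 1.44 to 37.0 ± 1.58 CPM per kb and CDH9 from 3.69 ± 0.0550 to 0.343 ± 0.0456 CPM per kb (SD, n = 3), so the difference in level was larger for CDH6 and the fold change larger for CDH9.

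CDH8, a type II cadherin of brain (chr16:61647242-62037035, minus strand), had 105, 64 and 77 counts in the controls and 67, 66 and 56 after SOX2 siRNA. In CPM every control (3.18, 2.55 and 2.66) lay above every treated library (2.22, 2.04 and 1.87), and the log2 fold change was -0.46 (SE 0.165). CDH8 no longer passed the threshold when any control library, SOX2 siRNA library 2 or SOX2 siRNA library 3 was left out, or under the DESeq2 Wald test. CDH10, another brain cadherin (chr5:24487100-24644978, minus strand), had 4, 6 and 6 counts in the controls and 1, 2 and 3 after SOX2 siRNA, too few for the fit, with a depth-scaled ratio of 0.353 (95% counting interval 0.113 to 0.95). That interval, too, leaves out the spread between libraries and is no test of CDH10.

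CDH12 and CDH11 varied between libraries of 1 group more than counting alone gives. CDH12, a brain type II cadherin (chr5:21750673-22853622, minus strand), had 43, 33 and 3 counts in the controls and 39, 4 and 22 after SOX2 siRNA. Its highest control library was 12.7 times its lowest in CPM, and its highest treated library 10.4 times its lowest. The coefficient of variation was 76.7% in the controls, where counting alone gives 19.5%, and 81.5% after SOX2 siRNA. The log2 fold change of -0.35 had an SE of 1.1, and it ran from -1.10 to 0.16 over the alternatives. CDH11, the cadherin of mesenchyme and bone (chr16:64943753-65126112, minus strand), had 22, 6 and 5 counts in the controls and 18, 4 and 10 after SOX2 siRNA, and its summed counts of 33 and 32 gave a ratio of 0.913 (95% counting interval 0.543 to 1.53). Its coefficient of variation was 74.5% in the controls, where counting alone gives 30.2%. It did not pass the filter with all libraries, and where it did enter a fit its log2 fold change ran from -0.71 without SOX2 siRNA library 1 to 0.32 without SOX2 siRNA library 2. In CPM both genes were lowest in control library 3 and in SOX2 siRNA library 2. CDH1 was lowest there too, at 1.141 and 1.268 CPM, but by a narrow margin over the next library of each group, at 1.158 and 1.272 CPM.

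Several other genes, chosen after their values were seen, were lowest in the same libraries. EPCAM, an epithelial adhesion molecule, had 123, 42 and 25 counts in the controls and 107, 20 and 63 after SOX2 siRNA. LYZ, lysozyme, had 481, 348 and 61 counts and 542, 48 and 364. ALB, albumin, had 68, 22 and 3 counts and 57, 2 and 28. CDH26, a cadherin of epithelia outside the classical group, had 66, 26 and 7 counts and 54, 10 and 19. For each of these 4 genes, control library 3 and SOX2 siRNA library 2 had the fewest counts of their groups. What these libraries share that sets the CDH12 and CDH11 values was not tested.

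**Figure D2:**
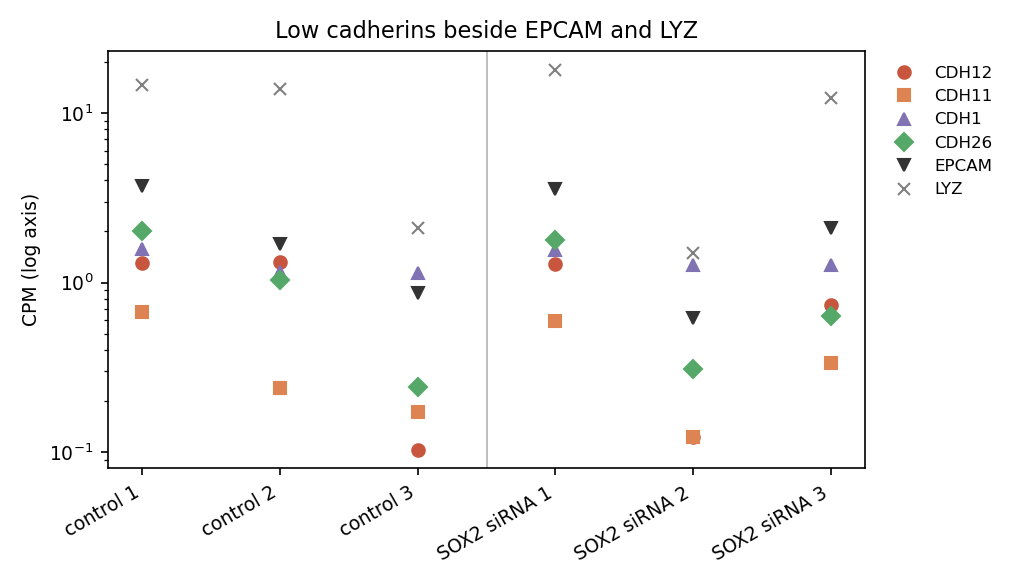
Level in CPM (log axis) of CDH12, CDH11, CDH1 and CDH26 beside EPCAM and LYZ in each of the 6 libraries. CDH12 is at 0.104 CPM in control library 3 and 0.124 CPM in SOX2 siRNA library 2, where CDH11 covers its point, and at 1.30 and 1.29 CPM in library 1 of each group.

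Of the 10 members, 7 passed the filter on low counts and 3 (CDH4, CDH10 and CDH11) did not. Of the 7, 5 had an adjusted p under 0.05 by edgeR's quasi-likelihood test, all of them lower after SOX2 siRNA and none higher. Over all 17592 genes tested, 28.2% passed that threshold, 13.4% as lower and 14.8% as higher, and since the comparison chose the set, nothing is read from the members' count. The number of members past the threshold was 3 when control library 2, control library 3 or SOX2 siRNA library 2 was left out. In CPM the control and treated libraries were fully separate for 5 of the 7 members, beside 41.8% of all tested genes. The median log2 fold change of the 7 was -0.46, beside -9e-04 over all tested genes. Of the 7, CDH9 and CDH6 were at least 2-fold lower, and 1.59% of the tested genes passed the threshold and were at least 2-fold lower.

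The summed level of all 10 members was 143.2, 146.9 and 148.0 CPM per kb in the controls and 92.0, 93.8 and 96.4 CPM per kb after SOX2 siRNA, without overlap. The type I sum went from 61.4 ± 2.31 to 56.2 ± 0.664 CPM per kb (SD, n = 3), and the type II sum from 84.7 ± 1.24 to 37.8 ± 1.51 CPM per kb. CDH6 made up 55 ± 1.03% of the sum in the controls and 39.4 ± 0.771% after SOX2 siRNA. The share of CDH2 went from 40.7 ± 1.2% to 58.4 ± 0.579%, and that of CDH9 from 2.53 ± 0.0378% to 0.365 ± 0.0471%. CDH2 and CDH6 together held 95.7 ± 0.249% and 97.7 ± 0.193%. The CDH6 level per kb was 1.41, 1.29 and 1.37 times that of CDH2 in the controls and 0.654, 0.676 and 0.694 times after SOX2 siRNA, so the order of the pair turned. That turn rests on the transcript length: divided by the length of the coding sequence, CDH6 was above CDH2 in both groups, and its share of the sum was 73.2% in the controls and 59.0% after SOX2 siRNA. By that length the share of CDH2 was 24.1% and 39.0%, and the share of CDH9 was 1.22% and 0.199%. By whole transcript length, CDH9 went from the third to the fourth place and overlapped with CDH1 after SOX2 siRNA, at 0.343 ± 0.0456 and 0.279 ± 0.0339 CPM per kb. By coding length it was the third in the controls and went to place 6, below CDH8 and CDH1.

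**Figure D3:**
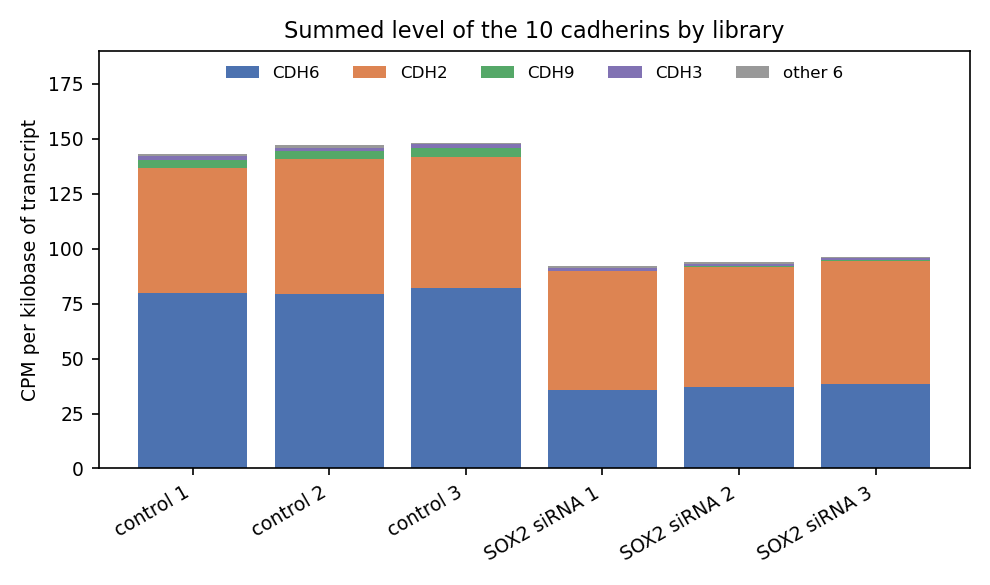
Stacked bars of the summed level of the 10 members in CPM per kb of principal transcript, 1 bar per library, coloured by gene. The bars stand at 143.2 to 148.0 in the controls and 92.0 to 96.4 after SOX2 siRNA, and the CDH6 segment is the one that shortens most.

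CDH9, CDH10, CDH12 and CDH6 lie together on the short arm of chromosome 5 with CDH18, a further type II cadherin of brain that is no member of the set, and the start sites of these 5 genes span 10.6 Mb. By the outermost start that GENCODE 29 gives, CDH6 starts 4.07 Mb from CDH9 on one side, and CDH10, CDH12 and CDH18 start 2.48, 4.27 and 6.55 Mb from it on the other. CDH18 had 64, 47 and 69 counts in the controls and 157, 202 and 190 after SOX2 siRNA. All treated libraries were above all controls, with 2.07 ± 0.279 CPM against 5.94 ± 0.639 CPM (SD, n = 3). The log2 fold change of CDH18 was 1.52 (SE 0.145), with an adjusted p of 3.63e-07 by edgeR's quasi-likelihood test. The tested genes of this stretch thus did not share a direction: CDH6 and CDH9 were lower, CDH18 was higher, and CDH12 had overlapping groups. CDH10, too low to be tested, was lower in every treated library. It had 4, 6 and 6 counts in the controls and 1, 2 and 3 after SOX2 siRNA.

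Around CDH9, 6 of the 7 annotated genes nearest to it or inside it had 0 counts in all libraries. The exception was PURPL, a long non-coding RNA 351.1 kb from CDH9, with 1442, 1211 and 1252 counts in the controls and 1351, 1388 and 1021 after SOX2 siRNA. Its groups overlapped, and its log2 fold change was -0.15 (SE 0.105; edgeR adjusted p = 0.367). DROSHA, the microRNA-processing nuclease and a coding neighbour of CDH6, had a log2 fold change of 0.02 (edgeR adjusted p = 0.676), and C5orf22 one of -0.04 (edgeR adjusted p = 0.545). These neighbours of the fallen cadherins did not pass the threshold.

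**Figure D4:**
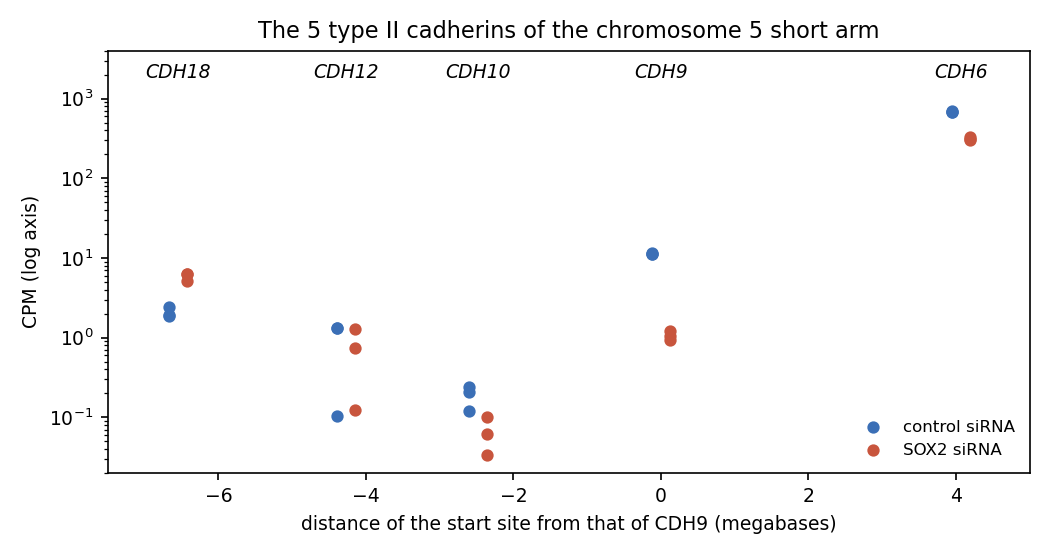
Level in CPM (log axis) of the 5 type II cadherins of the short arm of chromosome 5, by distance of the annotated start from that of CDH9 in megabases, 1 point per library. The SOX2 siRNA points lie below the controls for CDH9, CDH6 and CDH10, above them for CDH18, and among them for CDH12. CDH10 had at most 6 counts in a library and was not tested.

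The genes whose pattern over the 6 libraries was nearest to that of CDH9 were sought by the Euclidean distance of log2 CPM centred on each gene's mean. The nearest was SHISA3, at a distance of 0.57 and with a log2 fold change of -3.32. SOX21 (0.622 and -3.03), POSTN (0.63 and -3.15), HTR1D (0.802 and -2.85) and SOX21-AS1 (0.973 and -3.07) followed. SHISA3 is an endoplasmic reticulum protein, SOX21 a transcription factor of the SOXB2 group, POSTN the matrix protein periostin and HTR1D a serotonin receptor. Each had a fall of a size close to that of CDH9, which this distance favours. By Pearson correlation over the same libraries the nearest were CD24, EML1, MLEC, PCDH18 and PLXNC1, and 0 of the 5 were shared.

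Related genes were taken from lists of the adhesion machinery, none of which holds a member. Beside every count below, the background is the 28.2% of all tested genes that passed the same threshold of edgeR's quasi-likelihood test. Among the other type I and type II cadherins, 4 of 8 entered the fit, 1 rose and 2 fell. CDH18 rose, as given above. CDH5, the VE-cadherin of endothelium, fell from 8.98 ± 0.133 to 5.48 ± 0.742 CPM (mean ± SD of 3 libraries; log2 fold change -0.71, edgeR adjusted p = 5.49e-05). All 5 endothelial markers, CDH5 among them, were lower after SOX2 siRNA, and the part of that in the CDH5 value was not tested. CDH7 fell from 4.56 ± 0.0384 to 3.30 ± 0.190 CPM (log2 fold change -0.47, edgeR adjusted p = 0.00983), a call lost under the DESeq2 Wald test (adjusted p = 0.0509) and without library 1 of both groups (edgeR adjusted p = 0.0593). CDH24 had a log2 fold change of 0.19 and did not pass.

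The proteins that bind the cadherin tail and their junction partners changed in both directions. Of 19 catenins and junction partners, 18 entered the fit, 4 rose and 4 fell, with a median log2 fold change of -0.06. CTNNB1, β-catenin, rose from 766 ± 6.35 to 953 ± 42.3 CPM (mean ± SD of 3 libraries; log2 fold change 0.32, edgeR adjusted p = 3.36e-06). JUP, plakoglobin, rose from 54.9 ± 3.07 to 71.2 ± 0.273 CPM (log2 fold change 0.37, edgeR adjusted p = 7.64e-06). Of the other main catenins, named beside those with the smallest p, CTNND1, p120-catenin, rose by a log2 fold change of 0.15 (edgeR adjusted p = 0.0108), and CTNNA1, α-catenin, had one of -0.06 (edgeR adjusted p = 0.21). NECTIN1, an immunoglobulin-type adhesion protein of the same junctions, fell from 69.0 ± 3.61 to 51.3 ± 0.530 CPM (log2 fold change -0.43, edgeR adjusted p = 1.57e-06), while its relative NECTIN2 rose by a log2 fold change of 0.22 (edgeR adjusted p = 0.00107).

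Of 11 desmosomal cadherins and plaque proteins, 5 entered the fit, 1 rose and 2 fell. The desmocollin DSC2 fell (log2 fold change -0.32, edgeR adjusted p = 9.79e-05), and so did the plaque protein PKP2 (-0.26, edgeR adjusted p = 0.00645). The desmoglein DSG2 rose by a log2 fold change of 0.14 (edgeR adjusted p = 0.017), a call lost without control library 1 or 2 or SOX2 siRNA library 1 or 2, at edgeR adjusted p from 0.0621 to 0.101.

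Atypical cadherins went both ways, with 6 of 17 tested genes higher and 4 lower. DCHS1, a partner of the FAT cadherins in planar polarity, rose from 56.1 ± 3.49 to 85.3 ± 3.69 CPM (mean ± SD of 3 libraries; log2 fold change 0.60, edgeR adjusted p = 5.99e-08). FAT4, the receptor that DCHS1 binds, fell (log2 fold change -0.36, edgeR adjusted p = 2.3e-05). Among the seven-pass cadherins CELSR2 fell (-0.43, edgeR adjusted p = 5.36e-07) and CELSR3 rose (0.30, edgeR adjusted p = 1.74e-04).

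Of 12 non-clustered protocadherins, 9 entered the fit, 4 rose and 4 fell. PCDH18 fell from 154 ± 2.74 to 62.1 ± 2.88 CPM (mean ± SD of 3 libraries; log2 fold change -1.31, edgeR adjusted p = 1.62e-13). PCDH8, a protocadherin of paraxial mesoderm and synapses, fell from 13.2 ± 0.613 to 3.83 ± 0.719 CPM (log2 fold change -1.79, edgeR adjusted p = 2.08e-09). PCDH11X, picked out after its values were seen, had 26, 25 and 25 counts in the controls and 4, 6 and 1 after SOX2 siRNA. PCDH19 rose by a log2 fold change of 0.88 (edgeR adjusted p = 1.05e-05) and PCDH1 by 0.73 (edgeR adjusted p = 5.83e-07).

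Genes of cadherin processing and shedding, mostly proteases and subunits of protease complexes, were all tested, with 5 of 14 higher and 2 lower. CBLL1 in this list is not a protease. MMP14, a membrane-bound matrix metalloproteinase, rose from 65.3 ± 0.772 to 105.9 ± 3.81 CPM (mean ± SD of 3 libraries; log2 fold change 0.70, edgeR adjusted p = 6.52e-10). APH1A, a subunit of a membrane protease complex, rose by a log2 fold change of 0.28 (edgeR adjusted p = 1.32e-04). FURIN, which cleaves cadherin propeptides, rose by 0.23 (edgeR adjusted p = 5.86e-04).

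Of 17 transcription factors known to act on CDH1 or CDH2, 10 entered the fit, 4 rose and 2 fell. SNAI2, a repressor of CDH1, rose from 4.57 ± 0.221 to 12.8 ± 0.825 CPM (mean ± SD of 3 libraries; log2 fold change 1.49, edgeR adjusted p = 1.36e-09). TWIST1 rose from 3.20 ± 0.446 to 9 ± 0.495 CPM (log2 fold change 1.5, edgeR adjusted p = 2.32e-08), and ZEB1 rose by a log2 fold change of 0.41 (edgeR adjusted p = 1.45e-06). ZEB2 fell from 175 ± 7.51 to 129 ± 5.33 CPM (log2 fold change -0.43, edgeR adjusted p = 4.33e-07). CDH1 itself overlapped between the groups, as given above.

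**Figure D5:**
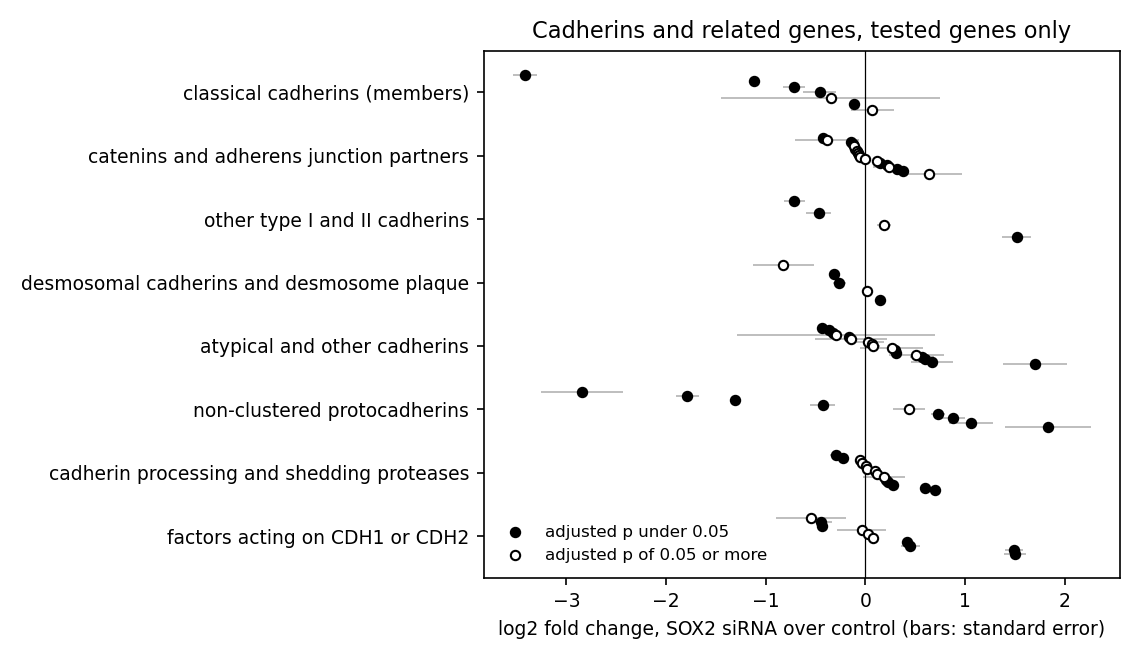
Fitted log2 fold change, SOX2 siRNA against control, with its standard error, for each tested member (top) and each tested gene of the 7 related lists, filled where the adjusted p was under 0.05. CDH9 is the point at -3.42, the wide bar of CDH12 crosses 0, and every related list has filled points on both sides of 0.

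Some of these genes share exon sequence with another annotated gene, and the use of strand in the counting is not given in the sources used here. By GENCODE 29, exons of CDH1, CDH2, CDH3, CDH6, CDH8, NECTIN1, NECTIN2, DSG2, DCHS1, APH1A, TWIST1, ZEB1 and ZEB2 overlap a gene on the other strand, and those of CDH6, CDH11 and CELSR3 a gene on the same strand, so their counts could hold or lose reads of those partners. CDH9, CDH10, CDH4, CDH12 and CDH18 overlap none, although CDH12 has annotated pseudogene copies on the long arm of chromosome 5, between which its reads could be split.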

How the data were processed

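RNA-seq of 6 PA1 libraries was analysed from raw counts per gene symbol, whole numbers deposited by the authors. The submitters' processing notes name bcl2fastq 2.20.0, STAR 2.7.3a, Salmon 0.14.1, DESeq2 1.28.1 and GRCh38.p13, with no role or order. The counting program, annotation and use of strand are not given in the sources used here. The counts were filtered with edgeR's filterByExpr, scaled by TMM and fitted with edgeR's quasi-likelihood test over all 17592 genes kept, 3 libraries against 3, with Benjamini-Hochberg adjustment and a threshold of 0.05. CPM use the TMM-scaled library sizes. Each SE is the absolute log2 fold change divided by the square root of the F statistic of that test. The script was tested on simulated data in which all genes had the same spread beyond counting. That checks the code and does not cover genes as variable between libraries as CDH12 or CDH11. Levels per kb use GENCODE 29 principal transcripts. Named are all members, up to 4 genes per related list with the smallest p among those past the threshold, the genes next to CDH9, and the 5 nearest to it in pattern, beside genes said to be chosen later. A gene that this rule picks is not reported here. The members and lists were chosen with earlier results of these data known. Alternatives covered scaling, filtering, the test, a replicate block, transcript length and leaving out each library.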

Additional observations from a re-analysis of the deposited data

How the results depend on the processing

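Of the 10 cadherins, 7 entered the fit reported and 5 passed its threshold, beside 28.2% of all tested genes. Without 1 library the number past the threshold ran from 3 to 4. It was 4 with no filter beyond 1 count, 4 under the DESeq2 Wald test, 4 with the replicate block and 4 without library 1 of both groups, the last chosen after seeing the data. CDH9, CDH6 and CDH3 passed under every alternative run, with log2 fold changes of -3.53 to -3.33, -1.15 to -1.09 and -0.81 to -0.65. The alternatives reuse the libraries and the comparison that chose the set, so passing them is a description and supports nothing about the members. CDH8 lost the call in 9 of 15 alternatives and CDH2 in 4; CDH1 and CDH12 never passed and changed sign. CDH12 had no value where every library needed at least 10 counts. Genes past the threshold numbered 3760 to 5212 against 4964, and related genes 41 to 48 against 45. Among 27 genes outside the set that the naming rule picks, SOX2 included, no direction reversed, and CDH7 and DSG2 lost the call in 7 of 405 values. The CDH6 share of the summed control level was 55% per transcript length, 70.7% without a length and 73.2% per coding length, the last chosen after seeing the data. By Pearson correlation 0 of the 5 genes nearest to CDH9 were shared. Replicate numbers gave no sign of pairing the libraries: deviations of same-numbered libraries correlated at 0.0868, -0.0377 and -0.0311. Pairs with different numbers ran from -0.12 to 0.155. The highest, 0.155, was control library 3 with SOX2 siRNA library 2, the libraries in which CDH12 and CDH11 were lowest. The replicate block gave 5177 calls, 4829 of them shared. Depth limits CDH4 and CDH10, whose ratios have wide counting intervals. CDH11 did not pass the filter with all libraries, and its libraries also differed by more than counting alone gives. Fitted under 6 alternatives, it ran from -0.71 to 0.32.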
